A study of Homo sapiens with 4 samples.

Results

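Motile cilia and axoneme genes were examined in KM-H2. This established line comes from a human Hodgkin lymphoma, and the labels describe its source as cells of a pleural effusion. The genes are those whose annotated symbol starts with RSPH, DNAH, DNAI, DNAAF, CFAP, CIMIP, TEKT, ODAD or HYDIN, with PIERCE1, SPAG6, SPAG16 and SPAG17 added. The rule found 107 of the 19775 genes named on the array, on 221 probe sets (a probe set is a group of short probes for 1 transcript). Of the 107, 101 are protein-coding in the RefSeq annotation, 5 are long non-coding RNAs named after a neighbour (such as CFAP65-AS1), and HYDIN2 is a transcribed pseudogene. RNA was measured on 4 single-colour arrays. Groups of 2 arrays each were compared. The control group carried a non-silencing construct, and the other group carried the lentiviral pGIPZ-sh.FLJ27352 vector, whose hairpin is aimed at the BX648577 part of the CIITA-BX648577 fusion transcript (called knockdown below). Both groups carry the fusion and a vector, 1 hairpin was used, and the labels do not say whether replicates were separate cultures, so p-values measure only the spread between these arrays. The comparison asks which genes differ once the fusion transcript is targeted, and the levels show which axoneme genes this lymphoid line expresses.

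A motile cilium beats because dynein arms slide the doublet microtubules of its axoneme past each other. Radial spokes and a central apparatus control the beat, docking complexes hold the outer arms, and proteins inside the microtubule wall, tektins among them, stiffen it. Dynein arms are assembled in the cytoplasm by dedicated factors before they enter the cilium. In multiciliated cells the genes are switched on by FOXJ1 together with RFX factors, which bind a DNA element called the X-box. B lymphocytes and Hodgkin cells carry no motile cilia. The fusion partner itself belongs to this class, since FLJ27352 corresponds, by general knowledge, to PIERCE2, a protein of the microtubule interior. PIERCE2 is not one of the 107 genes.

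Promoters of these genes were searched for the X-box, because the element ties the class together independently of how its members were chosen. RefSeq promoters (GRCh38.p14, 250 bases before to 50 after a gene's start) were at hand for 88 of the 107. A paired X-box was taken as GTTNCC, a spacer of 0 to 3 bases and GGNAAC, a half-site as GTTGCC, and a forkhead core as TGTTTAC, each on both strands, and a half-site may lie inside a paired match. A paired match was found in 7 of the 88 promoters (7.95%) against 0.714% of all 27305 promoters. The half-site was found in 42 of the 88 (47.7%) against 12.2%, and the forkhead core in 5 (5.68%) against 3.41%. Among protein-coding genes alone the half-site shares were 48.2% and 12.6%. The 7 paired matches are shown because they are the members with the clearest form of the element, with the match in capitals and 7 bases on either side.
DNAH1, chr3:52316207-52316234, plus strand: ggctgatGTTGCCATGGCAACccggata
CFAP20DC, chr3:59050149-59050176, minus strand: tcccgcgGTTGCCTGGGCAACgctacgt
SPAG16, chr2:213284273-213284300, plus strand: caacatcGTTGCCACGGTAACtgggagg
CFAP45, chr1:159900164-159900191, minus strand: gctagtgGTTGCCAAGGTAACgcgtcaa
CIMIP1, chr20:58150873-58150899, plus strand: gtcctgcGTTGCCTGGCAACcggtctc
CFAP90, chr5:7851137-7851163, minus strand: ggcggcgGTTTCCAGGCAACgaccgaa
CFAP184, chr4:7042980-7043008, minus strand: gccttctGTTGCCCCGGGAAACctaacag
The CFAP184 match begins at the gene's first base, and the others begin between 19 and 184 bases before the start. All 7 genes were dim in KM-H2, with mean intensities from 3.30 (CFAP45) to 19.1 (CFAP20DC). So were most axoneme genes, since 92 of the 107 read under 25 on every array. Of the members clearly expressed in KM-H2 (over 50 on every array), 3 of the 7 with a promoter held a half-site (CFAP298, CFAP36 and CFAP97), against 39 of the other 81. A match is a stretch of letters and says nothing of whether a factor binds there.

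**Figure D1:**
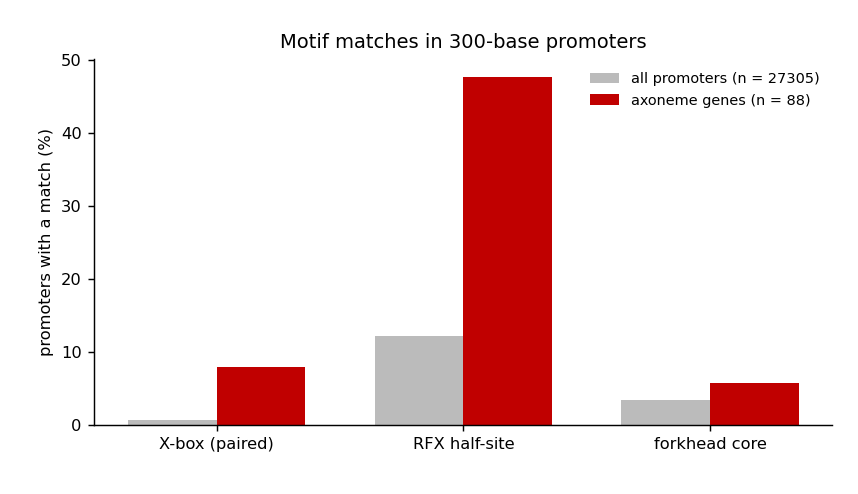
Share of 300-base promoters (vertical axis, percent) with at least 1 match to each motif, for all promoters (grey, n = 27305) and axoneme genes (red, n = 88). The half-site share is 47.7% for axoneme genes and 12.2% for all promoters.

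Levels are given as the deposited intensities, which have arbitrary units, at each gene's brightest probe set, so the order of genes is only approximate because probe sets differ in how strongly they bind. The table holds no detection calls. A gene was therefore counted as clearly expressed when it read over 50 on every array, and olfactory receptor genes, which are foreign to this tissue, served as a reference for dim signal. The 4 arrays had means between 53.3 and 54.6, and their medians were 9.17 and 9.28 in control and 8.37 and 8.12 in knockdown, so dim signal was lower on both knockdown arrays.

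KM-H2 expressed few axoneme genes. Over 50 on all 4 arrays stood 8 of the 107 (7.48%), against 26.01% of all named genes and 2 of 102 olfactory receptor genes (1.96%). Over 25 on all arrays stood 11, over 100 stood 5, and 92 read under 25 on every array. The median level was 7.91 for axoneme genes, 14.3 for all named genes and 6.88 for olfactory receptor genes, whose 95th percentile was 22.5. At the level of probe sets, 9 of the 221 read over 50 on all arrays.

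**Figure D2:**
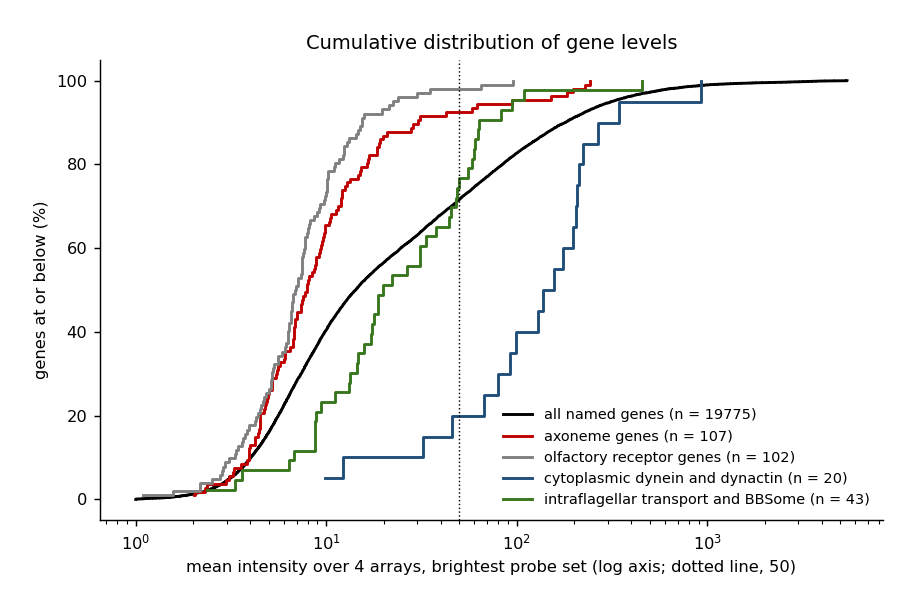
Cumulative share of genes (vertical axis, percent) at or below a mean intensity over 4 arrays (horizontal axis, log scale) for 5 gene groups. The axoneme median is 7.91 and its highest value 243, against medians of 6.88 for olfactory receptor genes and 147 for cytoplasmic dynein and dynactin genes.

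The 8 expressed genes came from 3 families. CFAP97 was the brightest, at 274 and 296 in control and 204 and 199 in knockdown. CFAP20, a protein of the inner junction of the doublet, read 221 and 231 in control and 241 and 219 in knockdown, where the groups overlap. DNAAF5, a dynein arm assembly factor, read 183 and 188 in control and 227 and 194 in knockdown. CFAP68, a microtubule inner protein, read 173, 184, 194 and 185 over control replicates 1 and 2 and knockdown replicates 1 and 2. CFAP97 and CFAP68 reached these levels on suffixed probe sets (marked _s_ and _x_, types whose probes can match other transcripts). The brightest unsuffixed probe set of CFAP97 read 9.63, 8.25, 8.10 and 12.3, and that of CFAP68 read 27.2, 35.3, 31.1 and 22.9. In the same array order CFAP298, a factor in dynein arm assembly, read 154, 136, 161 and 154. RSPH1, a structural protein of the radial spoke head, read 126 and 134 in control and 59.0 and 60.8 in knockdown. DNAAF2, another assembly factor, read 72.3 and 62.6 in control and 56.4 and 54.8 in knockdown. CFAP36, which binds the ciliary GTPase ARL3, read 59.8, 60.6, 55.7 and 56.5, and is the dimmest of the 8. Just under the threshold came DNAAF10, a cochaperone-linked assembly factor, at 46.9, 37.3, 44.3 and 40.7.

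The list of expressed genes holds the assembly factors DNAAF5, DNAAF2 and CFAP298, and the doublet proteins CFAP20 and CFAP68. It also holds RSPH1, CFAP36 and CFAP97. RSPH1 was the only gene in it with an RSPH, DNAH, DNAI, ODAD, TEKT, SPAG or HYDIN symbol. Families here follow gene symbols, with the non-coding RNAs kept apart. CFAP genes are therefore counted separately, also where their proteins belong to the spokes, the central apparatus or the microtubule interior. Of the 6 RSPH genes, RSPH3 was next at 12.8, 12.7, 19.3 and 22.7, and the others had means from 4.21 to 9.21. None of 13 dynein heavy chain genes, which encode the motors, reached 50 on all arrays. The brightest was DNAH3 at 38.6 and 22.9 in control and 33.1 and 19.7 in knockdown, followed by DNAH10, an inner arm motor, at 27.7, 33.9, 25.6 and 24.3. The DNAH3 signal was high on replicate 1 and low on replicate 2 of both groups, and comes from a probe set of a type whose probes can match other transcripts (marked _x_). Of 5 intermediate chain genes, DNAI3 read 25.6, 30.7, 32.1 and 36.6, and DNAI1 and DNAI2 of the outer arm had means of 10.4 and 12.5. The 4 docking genes (ODAD) had means from 4.51 to 15.0, and the 5 SPAG and HYDIN genes of the central apparatus from 2.05 to 9.61. HYDIN, a large central apparatus protein, was listed at 1.02, 1.86, 1.00 and 4.32, next to the table's floor of 1. The 13 CIMIP, TEKT and PIERCE genes had means from 2.04 to 12.1. CFAP68, a brighter microtubule inner protein, was counted with the CFAP genes.

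**Figure D3:**
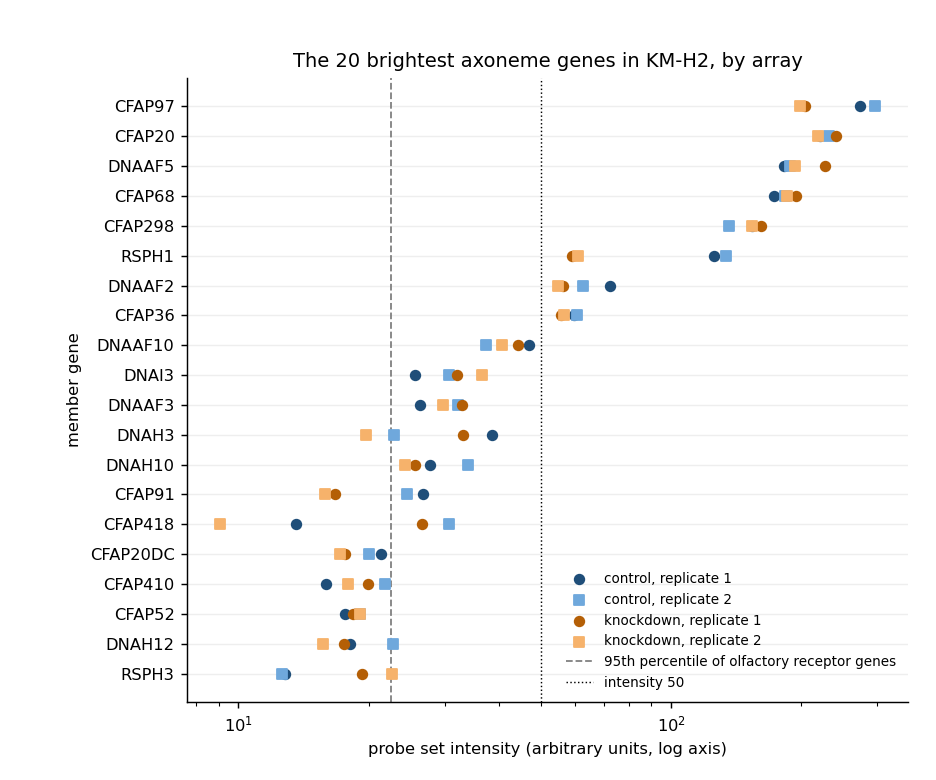
Intensity on each of the 4 arrays (horizontal axis, log scale; arbitrary units) for the 20 brightest axoneme genes, ordered by mean. The upper 8 lie right of the dotted line at 50 on all arrays, and the dashed line marks 22.5, the 95th percentile of olfactory receptor genes.

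Of the dynein arm assembly genes with a DNAAF symbol, 2 of 10 (DNAAF5 and DNAAF2) were over 50 on all arrays. This is a share of 20% against 26.01% of all named genes. With DNAAF10 and DNAAF3, 4 of 10 were over 25 (40% against 36.6%). DNAAF3 read 26.3, 32.1, 32.8 and 29.7. The other DNAAF genes had means from 3.57 (DNAAF6) to 16.5 (DNAAF9). DNAAF4, which follows PIERCE2 in the annotation's gene order on chromosome 15, read 9.05 and 7.0 in control and 5.62 and 5.79 in knockdown, below the filter used for tests. Of 46 CFAP genes, 5 were over 50 and the median was 7.22. After CFAP36 came CFAP91, a protein at the base of radial spokes, at 26.7 and 24.5 in control and 16.7 and 15.9 in knockdown. CFAP418 read 13.6 and 30.6 in control and 26.5 and 9.07 in knockdown, so its arrays of the same group differed more than its groups. CFAP20DC, CFAP410, CFAP52 and DNAH12 had means between 18.5 and 19.1. The 5 non-coding RNAs had means from 4.25 to 11.5.

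The regulators of the ciliary programme and the markers of ciliated cells were examined as lists. FOXJ1 read 2.10, 6.58, 3.41 and 7.64 and was below the filter. Of 15 transcription and basal body factors, 14 were named on the array and 3 stood over 50: MYB at 147, 153, 134 and 130, E2F4 at 128, 112, 126 and 119, and PLK4 at 69.0, 55.9, 67.3 and 54.7, all of which also act in the cell cycle of dividing cells. FOXN4 read 32.2, 24.4, 35.7 and 27.5. RFX2 read 38.7, 25.5, 30.8 and 18.01 on a probe set marked _x_. RFX1 read 28.4, 25.4, 29.8 and 25.2, and RFX3 read 11.1, 16.2, 10.01 and 11.8. Of 15 markers of ciliated epithelial cells, none was over 50 and the highest mean was 12.9 (MLF1), and SNTN, a marker of ciliary tips, read 1.37 to 1.93. The summed level of that list was 63.3 and 75.8 in control and 71.4 and 86.0 in knockdown. Of 18 testis germ cell markers, whose cells build a flagellum, none was over 50, the summed level was 135 and 137 in control and 130 and 118 in knockdown, and PRM1, a sperm protamine gene, read 9.34, 4.88, 6.46 and 1.00. In contrast, 8 of 10 genes of Hodgkin line identity were over 50, among them TNFRSF8 (CD30) at 110, 115, 134 and 115.

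Genes that axonemes share with other cell functions had higher median levels than the 107 axoneme genes. Of all named genes, 26.01% stood over 50 on all arrays, and the median was 14.3. Of 20 cytoplasmic dynein and dynactin genes, 16 stood over 50, with a median of 147, and DYNLL1, a light chain used by cytoplasmic and axonemal dyneins, read 925, 919, 960 and 903. Of 43 genes of intraflagellar transport and the BBSome, which also serve the primary cilium, 7 stood over 50 and the median was 19.9. This share over 50 is smaller than that of all named genes. IFT25, also a small heat shock-like protein, was the brightest at 460, 490, 446 and 421, on a probe set marked _x_. Of 34 other axoneme genes outside the 107, 2 stood over 50, KIF9 at 68.4, 68.4, 74.6 and 80.6 (probe set marked _x_), and PIERCE2. The median of the 34 was 6.81, against 7.91 for the 107 axoneme genes.

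For the comparison, each difference is the knockdown mean less the control mean of log2(intensity + 16), a scale that understates the change of dim genes. Genes dimmer on average than the median probe set, equal to an intensity of 8.26, were left out, which kept 12922 genes and 50 of the 107. Of these 50, 38 had both group means above the filter and 12 only 1, so a count over the 50 partly follows from the filter. Just inside lay PIERCE1 (mean 8.45) and CFAP97D1 (8.65), and just outside CFAP99 (8.02) and CIMIP2C (8.09).

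Knockdown arrays had less RSPH1 and CFAP97, less signal of the HYDIN2 pseudogene and more CIMIP6, and these calls depend on how the variance is modelled. In the planned limma fit with 1 prior variance for all genes (common-prior fit), 0 of the 50 axoneme genes passed an adjusted p of 0.05, against 0.0155% of all genes tested, and the unadjusted p was under 0.05 for 3 genes with more and 9 with less signal in knockdown, against 6.41% and 7.68% of all genes. In the fit whose prior variance follows intensity (intensity-trend fit), 4 of 50 passed, against 2.99% of all genes. CIMIP6 was the 1 higher (background 1.59%) and RSPH1, CFAP97 and HYDIN2 were the 3 lower (background 1.4%). CIMIP6 and HYDIN2 passed the filter only through the group where they were brighter, so these counts partly follow from the filter. The groups did not overlap at 30 of 50 genes, of which 11 were higher and 19 lower in knockdown, against 47.3% of all genes tested. Over the 50, 23 differences were above 0 and 27 below, with a median of -0.09, against -0.01 for all genes. Most were dim, and dim genes lay lower in general. The 37 with means of 8 to 25 had a median of -0.096, with 56.8% below 0. All tested genes of that range had -0.050 and 60.9%. At means of 25 or more the medians were 0.014 for axoneme genes and 0.012 for all genes. In bulk RNA, fewer cells that express a gene and less RNA per cell cannot be told apart.

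**Figure D4:**
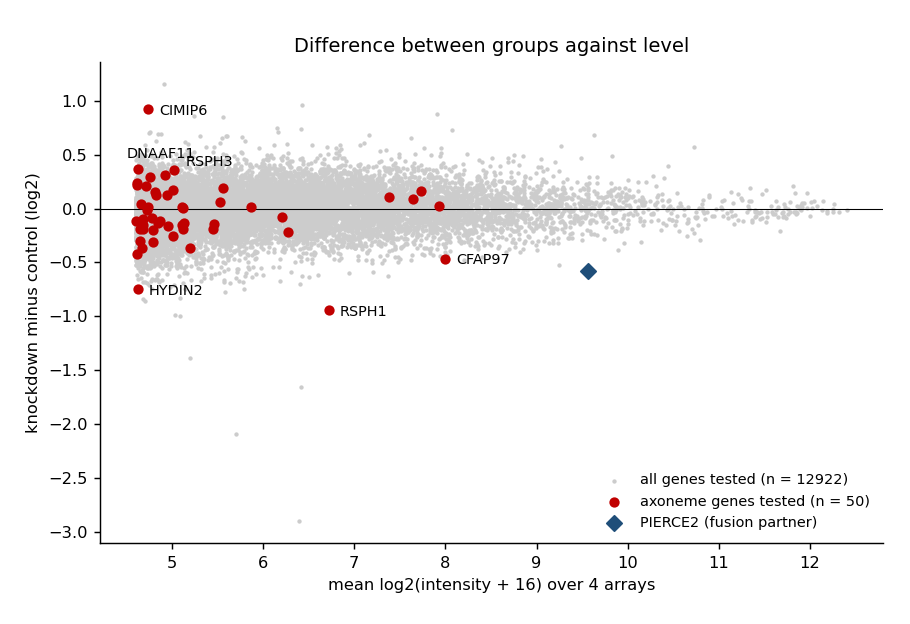
Knockdown minus control (vertical axis, log2) against mean log2(intensity + 16) over 4 arrays (horizontal axis) for all 12922 genes tested (grey), the 50 axoneme genes tested (red) and PIERCE2 (blue diamond). RSPH1 at -0.94 and CFAP97 at -0.47 lie below the cloud of genes of like level, and CIMIP6 at 0.92 and HYDIN2 at -0.75 lie at its dim end.

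On the log2(intensity + 16) scale, RSPH1 had the largest difference among the axoneme genes lower in knockdown. Some dim genes fell further as a share of control, such as HYDIN2 to 19.2%. The single RSPH1 probe set stood at 130 ± 5.76 in control and 59.9 ± 1.29 in knockdown (SD, n = 2), so knockdown had 46.1% of the control signal. The log2 difference was -0.94 (SE 0.10), and limma gave adjusted p = 0.147 (common-prior) and 6.68e-05 (intensity-trend). Under the intensity-trend alternatives its adjusted p ranged from 3.66e-16 to 0.0199, and all 13 kept the call. In the common-prior fit its adjusted p ranged from 5.80e-05 to 0.388, and 2 of 14 alternatives called it, the filter at an intensity of 50 and the pseudocount of 64. Its promoter is not in the table used here. The other RSPH genes tested lay on both sides of 0. RSPH3 stood at 12.7 ± 0.13 and 21.0 ± 2.40 (0.36, SE 0.10, limma adjusted p = 0.260) and RSPH14 at 10.96 ± 3.85 and 7.46 ± 0.28 (-0.19). RSPH4A, below the filter, read 8.03 and 5.09 in control and 1.70 and 2.03 in knockdown (-0.33, not tested). Neither RSPH3 nor RSPH14 passed either fit. For RSPH3, the dimmer probe sets gave differences of 0.12, 0.18 and -0.06.

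CFAP97 stood at 285 ± 15.7 in control and 202 ± 3.75 in knockdown, or 70.7% of control. Its log2 difference was -0.47 (SE 0.10), and limma gave adjusted p = 0.252 (common-prior) and 0.00482 (intensity-trend) (0.0024 to 0.0456 with single arrays left out). This value rests on 1 probe set of a type whose probes can match several transcripts (marked _s_). Its other probe sets were dim: 9.63 and 8.25 in control against 8.10 and 12.3 in knockdown (0.07), 6.01 and 7.13 against 2.22 and 2.11 (-0.31), and 3.75 and 4.79 against 1.29 and 2.19 (-0.19). With the mean of its probe sets, or without suffixed probe sets, the call was lost in the intensity-trend fit (adjusted p up to 0.905). The promoter of CFAP97 holds 1 RFX half-site, in capitals, 213 bases before the start, in the 250 bases before the gene at chr4:185204001-185204250 (GRCh38.p14, minus strand), which are 76.8% G and C.
CFAP97 promoter: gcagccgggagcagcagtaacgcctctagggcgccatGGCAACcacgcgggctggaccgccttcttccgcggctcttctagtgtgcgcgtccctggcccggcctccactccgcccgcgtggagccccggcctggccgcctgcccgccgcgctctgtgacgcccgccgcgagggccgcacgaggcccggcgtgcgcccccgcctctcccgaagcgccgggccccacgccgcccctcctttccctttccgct

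CIMIP6, a ciliary microtubule inner protein, was near the floor in control, at 3.24 and 3.49, and read 18.4 and 23.2 in knockdown. The group means were 3.37 ± 0.18 and 20.8 ± 3.42, a log2 difference of 0.92 (SE 0.11), and limma gave adjusted p = 0.205 (common-prior) and 0.00783 (intensity-trend) (0.000104 to 0.0428 over 11 alternatives, all of which called it). Both groups lay within the range of olfactory receptor genes (1.09 to 95.5), and the gene passed the filter only through the knockdown arrays. Without knockdown replicate 2 it was below the filter and not tested. Its promoter, at chr2:54330634-54330883 (GRCh38.p14, plus strand), is shown beside that of CFAP97 as the only other one at hand among the 4 called genes, and held no match to the 3 motifs in these 250 bases.
CIMIP6 promoter: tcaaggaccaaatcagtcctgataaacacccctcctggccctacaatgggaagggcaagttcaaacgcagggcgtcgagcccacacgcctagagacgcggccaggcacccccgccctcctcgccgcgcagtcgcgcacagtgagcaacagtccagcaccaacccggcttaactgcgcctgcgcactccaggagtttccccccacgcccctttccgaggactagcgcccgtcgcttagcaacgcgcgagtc

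HYDIN2, a pseudogene copy of HYDIN, read 15.0 and 16.9 in control and 4.48 and 1.62 in knockdown. Its means were 15.9 ± 1.38 and 3.05 ± 2.02, a log2 difference of -0.75 (SE 0.12), and limma gave adjusted p = 0.252 (common-prior) and 0.0326 (intensity-trend). The call was lost in the intensity-trend fit without a filter, with the mean of probe sets and without knockdown replicate 2 (adjusted p up to 0.223). Without either control array the gene was below the filter and not tested, and it passed the filter only through the control arrays. Because the copies are nearly identical, which of them this probe set reads is uncertain, and HYDIN's own probe set read at most 4.32 on any array, with a difference of 0.09.

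**Figure D5:**
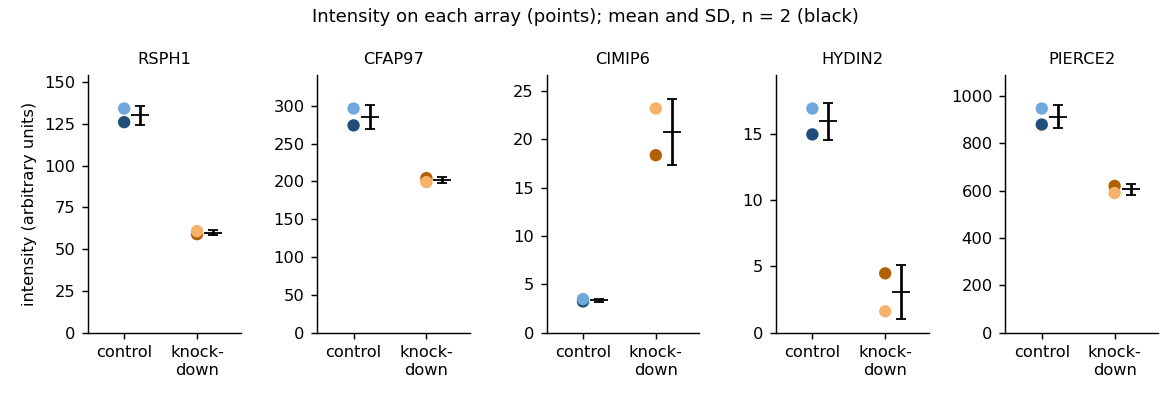
Intensity (vertical axes, arbitrary units, from 0) on each array for the 4 axoneme genes past the intensity-trend fit and for PIERCE2. Points are arrays, black marks are means with SD (n = 2), and in no panel do the groups overlap.

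The fusion partner PIERCE2 read 880 and 947 in control and 621 and 590 in knockdown, a log2 difference of -0.58 (limma adjusted p = 0.252 in the common-prior fit and 9.74e-05 in the intensity-trend fit). Whether its probe set reads the fusion transcript, the intact gene or both was not tested.

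Among dynein, assembly and docking genes none passed either fit, and of the CFAP genes CFAP97 alone passed the intensity-trend fit. Of 9 dynein heavy chain genes tested, 8 differences were below 0 and 1 above, with a median of -0.16. The groups were apart at 7 (background 47.3%), 6 of them lower (background 24.5%). DNAH14, counted among these 6, passed the filter only through the control arrays, so the counts partly follow from the filter. All 9 were dim, with means up to 28.6, and 7 had means between 8 and 25, a range in which 60.9% of all tested genes lay below 0. Signs also varied between probe sets. The second probe set gave -0.13 for DNAH1 (brightest 0.31) and 0.08 for DNAH10 (brightest -0.19), while those of DNAH3 and DNAH17 stayed below 0. Over all axoneme genes, 14 dimmer probe sets of 10 genes were also above the filter, and 8 had the sign of the brightest. All 4 intermediate chain genes tested and 5 of 6 DNAAF assembly factors lay above 0, against 6136 of all 12922 genes tested. Their medians were 0.16 and 0.12, and the groups were apart at 2 of the 4 and 3 of the 6. DNAAF11 had the largest difference among the assembly factors, at 5.69 ± 0.19 and 12.0 ± 2.05 (0.37, SE 0.11, limma adjusted p = 0.260 in the common-prior fit), and passed the filter only through the knockdown arrays. DNAAF5 gave 0.16 and DNAAF2 -0.22, with adjusted p-values of 0.544 and 0.412. Of 18 CFAP genes tested, 8 lay above and 10 below 0, with a median of -0.05, and CFAP91 gave -0.37 (limma adjusted p = 0.256 and 0.187 in the fits). The CFAP91 value comes from a probe set marked _s_, and its other probe sets above the filter gave -0.13, -0.19 and 0.07.

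The related lists showed no calls in the common-prior fit. Of 9 tested transcription and basal body factors 3 lay above 0 and 6 below, with a median of -0.04. For intraflagellar transport and the BBSome 15 lay above and 23 below (median -0.03), with IFT27 at 0.38 and KIF3A, a motor subunit, at -0.32. For cytoplasmic dynein and dynactin 9 lay above and 11 below (median -0.06), and for the other axoneme genes 7 above and 4 below (median 0.15), against -0.01 for all genes tested. In the intensity-trend fit PIERCE2 was the only gene of these lists to pass. Of the Hodgkin line genes FSCN1 passed it, at -0.32, with 7 of 10 above 0. Only 1 ciliated cell marker (-0.13) and 4 germ cell markers (2 above and 2 below 0) were bright enough to test, and neither list had a call.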

How the data were processed

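The deposited table holds linear probe set intensities for 54613 probe sets on 4 arrays. Biotinylated cRNA was made by the standard 1-cycle Affymetrix method, per the labels' protocols. The authors' way of summarising and scaling the probes was not given in the sources used here. Array means are nearly equal and values at exactly 1 mark a floor (971 to 1080 probe sets per array). Names came from the platform annotation, in which 41091 probe sets had 1 gene, 1801 several and 11721 none. Only the first kind was used, which left out 17 probe sets that name a gene of the class together with others, and 5 such genes. All 107 symbols matched RefSeq (GRCh38.p14) by gene number.

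Each gene was represented by its brightest probe set. Values were turned into log2(intensity + 16), filtered at the median of all probe set means (4.60), and fitted over all 12922 genes by the lmFit and eBayes functions of limma 3.58.1, under R 4.3.3, with Benjamini-Hochberg adjustment at 0.05. The intensity-trend prior was an alternative set beside it. Having 2 arrays per group limits the precision. Same-numbered arrays did not deviate together (r = -0.01 across genes), so no pairing was used.

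The members, gene lists and tests were chosen with earlier results of these data known. Genes named are the markers, the 20 brightest members, those past either fit, the 3 of smallest p per direction, and in each list its brightest and smallest-p genes. Any other gene named was chosen after their values were seen. The fit was tested on simulated data. Alternatives were other priors, filters, pseudocounts (1 and 64), normalizations, probe set choices, a replicate block, an adjusted p of 0.10, and leaving out each array.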

Additional observations from a re-analysis of the deposited data

How the results depend on the processing

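The count of axoneme genes called was 0 in the common-prior fit, and it was 4 with the intensity-trend prior, 2 with a filter at an intensity of 50 and 4 with a pseudocount of 64. It stayed at 0 in the other alternatives run, from 0 to 0 with single arrays left out. With the replicate number as a block it was 0, and 4 in the intensity-trend fit. Rerunning that fit under the other settings was added after the data were seen. Its count was then 2 with the filter at 50 and 2 with the mean of probe sets. With single arrays left out, HYDIN2 was below the filter without control replicate 1 or 2, and CIMIP6 without knockdown replicate 2. The median difference of the genes tested, -0.09, was -0.012 with no filter and 0.0047 without suffixed probe sets, and from -0.09 to -0.03 with single arrays left out. Genes clearly expressed numbered 8 with any single array left out, 6 with the mean of probe sets, 6 without suffixed probe sets, 11 at a level of 25 and 5 at a level of 100. CFAP97, called in the intensity-trend fit at -0.47, reversed to 0.067 without suffixed probe sets, where a dim probe set stood for it. Smaller differences also changed sign: CFAP68 was -0.14 without suffixed probe sets, CFAP298 was -0.012 with the mean of probe sets, and CFAP20 was -0.0016 and DNAAF10 -0.012 with quantile normalization. With single arrays left out the difference ran from -0.045 to 0.087 for CFAP20, -0.11 to 0.13 for DNAAF10, -0.027 to 0.16 for DNAAF3, -0.38 to 0.11 for DNAH3, -0.57 to 0.19 for CFAP418, -0.19 to 0.13 for CFAP410 and -0.015 to 0.048 for CFAP52. CFAP97 apart, these genes passed neither fit. The other causes were not tested.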
